A study of Rattus norvegicus with 71 samples.

Results

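Thoracic aorta of Brown Norway (BN) rats, an inbred strain, was compared between 24 months of age (6 arrays) and 15 months (5 arrays). These 11 arrays were picked by their source label, which gives vessel, strain and age, out of 71 arrays of the series. Total RNA was labelled with biotin and hybridised to Affymetrix rat expression arrays. The same labels name the vessel a thoracic artery, and state for every sample of the series, controls included, a collateral model made by closing a neighbouring artery, without saying which vessels came from it. Values beside the comparison come from 6 BN aortas of 6 months and from Fischer344 x Brown Norway (FBN) hybrid aortas of 15 and 24 months (6 arrays each). No genotype, transgene or drug is given for any group, and the labels do not say whether each array is a separate animal, so the p-values measure the spread between arrays. The series was set up over 2 strains, 2 vessels and 3 ages, and the question of this comparison is what differs late in life, between 15 and 24 months, in aorta of the strain.

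The aorta is a large elastic artery. Its wall is built of contractile smooth muscle between elastic sheets, lined by endothelium and wrapped in adventitia and, along the thorax of rodents, in brown fat that burns lipid to make heat. Ageing arteries are known for stiffening, altered endothelial function and low-grade inflammation, and interferon-inducible and antigen presentation genes are commonly studied as readouts of immune activation. In tissue as a whole, fewer cells of a type and less RNA per cell cannot be told apart.

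Signals are the MAS5 values of the deposited files, a linear intensity with an equal trimmed mean in all arrays. A change is the difference of mean log2 signals, 24 minus 15 months, ± its standard error. A probe set is a group of short probes for one transcript region, and a gene can have several. Genes said to rise or fall passed limma's moderated test at a Benjamini-Hochberg adjusted p of 0.05 over 16717 tested probe sets, from a fit that shared its spread over all 35 aorta arrays. The median change over all tested probe sets was 0.02.

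The samples held the cells the label names, together with brown fat. Over the 11 arrays the smooth muscle genes Acta2 and Myh11 had signals of 10830 to 23790 and 29490 to 49910. Ucp1, the uncoupling protein of brown fat, lay between 73210 and 109800. Array medians lay between 281.4 and 311.5, and correlations between arrays of a group, over probe sets, between 0.943 and 0.976. Tissue mass was 24.6 ± 2.5 mg at 15 months (SD, n = 5) and 25.4 ± 2.8 mg at 24 months (n = 6), with no difference passing an exact permutation test (two-sided, p = 0.641, adjusted p = 0.699).

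The 15-month arrays stood apart in control signals that do not come from the tissue. Poly-A spike-ins are bacterial transcripts that are mixed into the RNA before labelling. Their mean log2 signal was 9.02 ± 0.062 at 15 months (8.93 to 9.08, n = 5) and 8.35 ± 0.15 at 24 months (8.11 to 8.56, n = 6), so the groups did not overlap. At 6 months it was 8.39 ± 0.12 (n = 6). The difference of -0.67 between 24 and 15 months reached the smallest p that an exact permutation test allows here (two-sided, p = 0.00216, adjusted p = 0.00866 over 12 tests), and 26 of the 27 poly-A probe sets had a lower mean at 24 months. Hybridization controls, added after labelling, went the same way by -0.45 (exact permutation test, adjusted p = 0.00866), in 18 of 18 probe sets. In FBN aorta the hybridization controls went the other way by 0.45 (exact permutation test, adjusted p = 0.00866), and the poly-A signal by 0.54 (exact permutation test, adjusted p = 0.0952), with FBN 24-month array 3 standing apart at 10.70. The log2 ratio of 3' to 5' signal of Actb, a sign of RNA integrity and labelling, differed by -0.28 in BN (exact permutation test, p = 0.026, adjusted p = 0.0623) and by 0.36 in FBN (adjusted p = 0.0325).

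**Figure D1:**
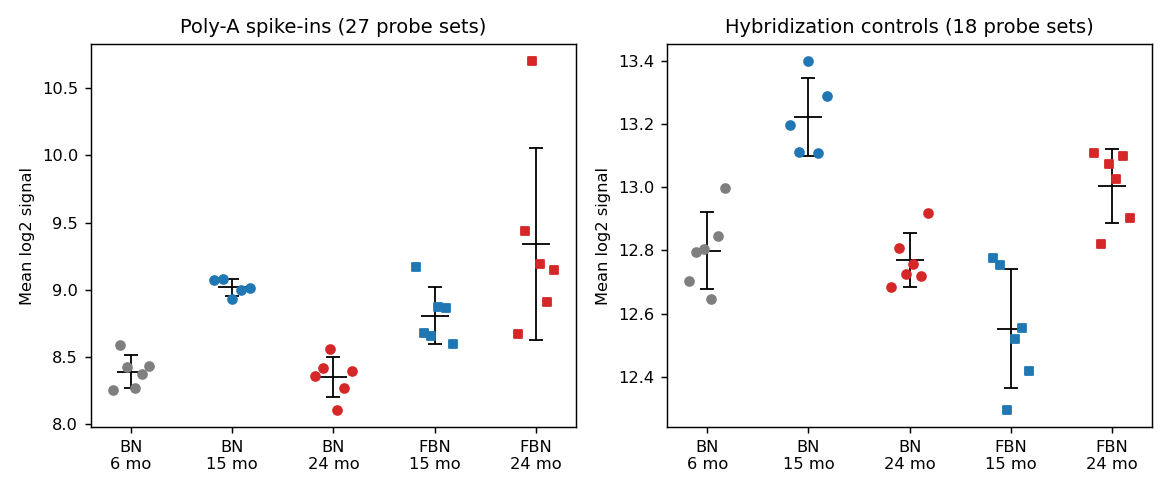
Mean log2 signal of the poly-A spike-ins (left) and the hybridization controls (right) in each aorta array, by strain and age; points are arrays and bars the mean ± SD. The 5 BN arrays of 15 months lie at 8.93 to 9.08 for the poly-A spike-ins, above all BN arrays of 6 and 24 months, and 1 FBN array of 24 months lies at 10.70.

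Between 15 and 24 months 42 of 16717 probe sets changed (0.251%), 31 of them higher (0.185%) and 11 lower (0.0658%) at 24 months. They belonged to 19 named genes that rose and 4 that fell, and 19 probe sets had no single gene symbol. Arrays of the 2 ages did not overlap for 34 of the 42, against 1.67% of all tested probe sets that were non-overlapping and higher and 1.14% non-overlapping and lower. The 42 were chosen by these same arrays, so the 34 are a description with no test. With the poly-A signal as a covariate 17 of the 42 passed, 8 of the 23 named genes among them, and all 42 kept their sign, at 64.3% to 138% of their size. The effect of that covariate was estimated within groups. The poly-A SD was 0.71 in FBN 24-month aorta, against 0.062 and 0.15 in BN at 15 and 24 months. Because the poly-A signals of the 2 BN ages did not overlap, this fit cannot separate labelling from age. The count also moved with single arrays: without 15-month array 5 there were 14 higher and 5 lower, and without 24-month array 4 there were 15 and 4. Dyrk2, Kmt5a, Map3k20, Nedd4, Peli2, RT1-CE5 and Vps52 passed in every alternative setting in which they were tested. Leaving out 1 of the 11 arrays ended the call of Slc6a8 for 15-month array 5 and of Nfe2l1 for 15-month array 3. It did so for 4 arrays each in Pgp and Ubr4, for 5 in Clic4, Myo1c, Pmp22 and Romo1, and for 6 in Raph1. For Naprt and Sf3b1 there were 7 such arrays, for Fcgrt, Rbpj and Zbtb20 8, and for Cenpx and Tfpi 9.

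The rises are set out by the known roles of the genes, a grouping made after they were seen and with no test. Ubiquitin ligation was represented by 3 genes. Peli2, an E3 ligase of Toll-like and interleukin-1 receptor signalling, had signals of 594, 516, 288, 573 and 526 at 15 months. At 24 months its 6 arrays ran from 957 over a median of 1250.1 to 1476, so all of them lay above the 15-month arrays. The change was 1.36 ± 0.17 (limma adjusted p = 3.75e-05). Nedd4, a ligase that marks membrane channels and receptors for removal, stood at 1532, 1697, 1221, 1359 and 1416 at 15 months and at 3790 to 5836 at 24 months (median 4283). It rose by 1.64 ± 0.23 (limma adjusted p = 0.000162). Ubr4, which recognises unstable protein ends, rose from a mean of 277 ± 58.9 to 646 ± 121 (1.23 ± 0.26, limma adjusted p = 0.0224), again without overlap. Ubr4 lost the call in 6 of 23 alternatives, the poly-A covariate among them (0.96, limma adjusted p = 0.181).

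A pair of protein kinases rose. Map3k20, a stress kinase that senses stalled ribosomes, had 15-month signals of 231, 383, 217, 64.2 and 97.5, and 24-month signals of 583 to 1090.5 (median 807). Its spread at 15 months was wide, yet the highest of those arrays lay below the lowest of 24 months (2.28 ± 0.38, limma adjusted p = 0.00211). Dyrk2, a kinase of the p53 and proteasome pathways, had 423, 343, 284, 237 and 201 at 15 months and 456 to 969 at 24 months (median 679.8), a rise of 1.21 ± 0.22 (limma adjusted p = 0.00531).

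Rises in nuclear proteins came from 4 genes. Rbpj, the DNA-binding effector of Notch signalling, which guides arterial identity, rose from 399.8 ± 50.7 to 603 ± 63.5 (0.60 ± 0.13, limma adjusted p = 0.0399). Zbtb20, a zinc finger repressor, rose from 246 ± 87.4 to 585 ± 121 (1.29, limma adjusted p = 0.0428). Sf3b1, a core subunit of the splicing machinery that recognises branch points, rose from 204 ± 67.4 to 511 ± 144 (1.33, limma adjusted p = 0.0254). In these 3 genes the lowest 24-month array exceeded every array of 15 months. Cenpx, a kinetochore and DNA repair protein, rose by 1.03 ± 0.23 (limma adjusted p = 0.0428), with 5 of 6 arrays above the 15-month maximum. The list of splicing factor and RNA-binding genes had a median of 0.05 over 23 tested genes, with 0 that passed and, at an unadjusted p under 0.05, 0 higher and 1 lower.

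Membrane traffic and the cell skeleton were represented by 5 genes. Vps52, a subunit of the complexes that tether vesicles at the Golgi and endosomes, had very low signals of 38.1, 33.2, 41.5, 70.9 and 27.4 at 15 months. At 24 months 5 arrays lay at or above 206 and array 6 at 47.0, inside the 15-month range (2.34 ± 0.37, limma adjusted p = 0.00143). All 5 signals of 15 months lay below 82.53, the offset used in one alternative, and with that offset added before taking log2 the change was 1.28. The second, brighter probe set of Vps52 changed by 0.64 ± 0.20 (limma adjusted p = 0.22). Clic4, a chloride channel family protein of endothelial tube formation, rose from 1568 ± 416 to 2858 ± 651 (0.87 ± 0.18, limma adjusted p = 0.0201). Raph1, which extends actin at the leading edge, rose by 1.21 ± 0.25 (limma adjusted p = 0.0251). Pmp22, a membrane protein best known from myelin, and Myo1c, a membrane-bound motor, rose by less, 0.58 ± 0.12 and 0.54 ± 0.11 (limma adjusted p = 0.0209 and 0.0224).

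The other 5 genes that rose act in clotting, immunity, transport and NAD synthesis. Tfpi, the inhibitor that shuts off tissue factor, stood at 761, 1246, 1257, 889 and 813 at 15 months and at 2274.5 to 4218 at 24 months (median 3788), a rise of 1.79 ± 0.40 (limma adjusted p = 0.0422). RT1-CE5, a class I histocompatibility gene, had 201, 159, 173, 171 and 161 at 15 months and 289 to 854 at 24 months (median 449). Its change was 1.50 ± 0.26 (limma adjusted p = 0.00484), and all 6 old aortas lay above all 5 younger ones. Class I genes of the rat are near copies of each other, so the probes may share signal between them. Slc6a8, the creatine transporter, went from 1051 ± 115 to 1559 ± 155 (0.57 ± 0.11, limma adjusted p = 0.0151). Fcgrt, the receptor that salvages antibodies and albumin, rose by 0.56 ± 0.12 (limma adjusted p = 0.0325). Naprt, which starts the making of NAD from nicotinic acid, rose by 0.60 ± 0.13 (limma adjusted p = 0.0334).

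The 4 genes that fell did so without overlap between the ages. Kmt5a, the methyltransferase of lysine on histone H4 that is needed for chromosome condensation, stood at 1784, 1463, 1744, 1477 and 1670.1 at 15 months and at 729 to 1039 at 24 months (median 846), a change of -0.91 ± 0.16 (limma adjusted p = 0.00305). Pgp, a phosphatase of glycerol phosphate, fell from 1594 ± 248 to 953 ± 201 (-0.76 ± 0.15, limma adjusted p = 0.0186). Nfe2l1, the transcription factor that induces proteasome genes, went from 3711 ± 457 to 2584 ± 190 (-0.52 ± 0.10, limma adjusted p = 0.0131). Romo1, a mitochondrial inner membrane protein tied to reactive oxygen production, fell by 0.42 on the log2 scale, from 6550 ± 737 to 4866 ± 292 (SE 0.09, limma adjusted p = 0.0224).

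**Figure D2:**
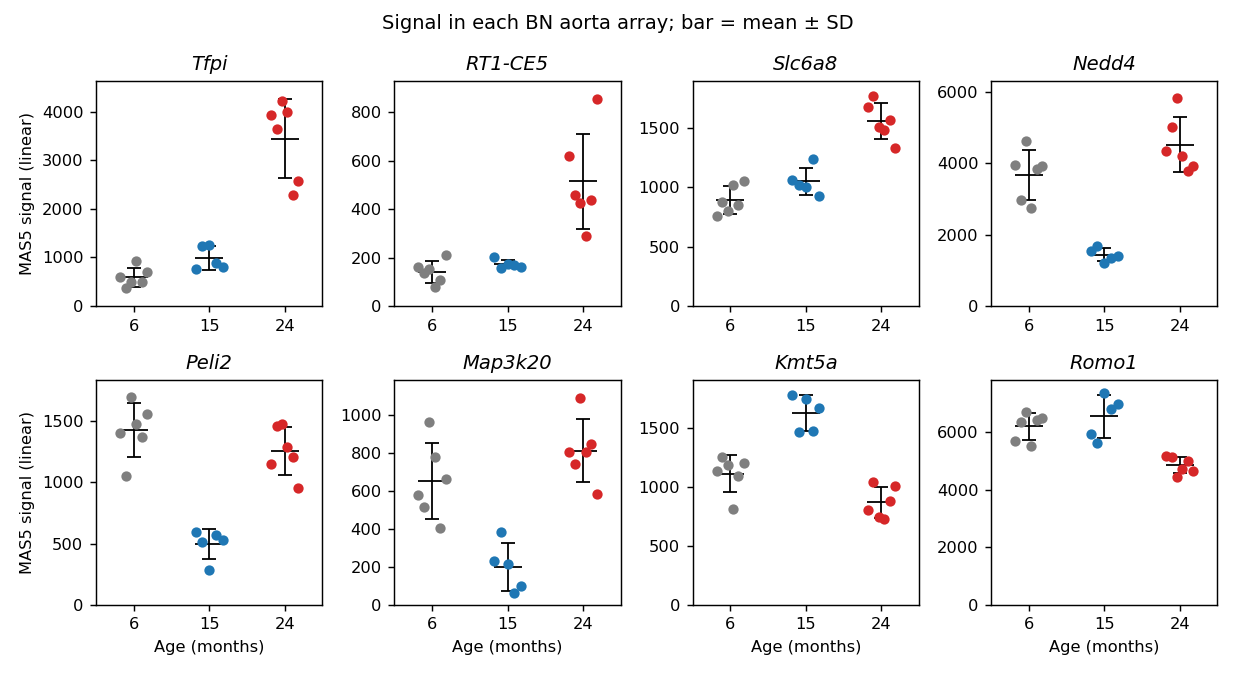
MAS5 signal on a linear axis from 0 in each BN aorta array at 6, 15 and 24 months for 8 of the named genes; points are arrays and bars the mean ± SD. Tfpi, RT1-CE5 and Slc6a8 are high at 24 months only, Nedd4, Peli2 and Map3k20 are low at 15 months only, Kmt5a is high at 15 months, and Romo1 is low at 24 months.

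The probe sets without a single symbol had changes of 0.67 to 2.50 among the 12 that rose and of -1.18 to -0.53 among the 7 that fell. The largest rise of the comparison belonged to one of them, 1394727_at, with 242, 298, 187, 93.5 and 85.3 at 15 months and 737 to 1222 at 24 months (median 918). Arrays of the 2 ages did not overlap for 15 of these 19 probe sets.

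The 6-month arrays give the level before both ages. For 30 of the 42 probe sets the 6-month mean was nearer to the 24-month than to the 15-month mean, as it was for 45.1% of all tested. The 42 were chosen by their 15-month and 24-month arrays, so this count is a description with no test. Peli2 averaged 1428 ± 219 at 6 months, 499 ± 122 at 15 and 1257 ± 198 at 24. Nedd4 averaged 3683 ± 696, 1445 ± 180 and 4524 ± 772 at the same ages, and Nfe2l1 2285 ± 161, 3711 ± 457 and 2584 ± 190. In these 3 genes the 15-month mean lay apart from both other ages. The 15-month control signals lay apart too. In BN neither control overlapped between 15 and 24 months, so their part in the result cannot be told apart from age, with or without a covariate. Among named genes 9 lay nearer to 15 months: RT1-CE5, Slc6a8, Clic4, Myo1c, Raph1, Fcgrt, Tfpi, Pgp and Romo1. Tfpi averaged 594 ± 195 at 6 months, 993 ± 240 at 15 and 3439 ± 815 at 24. RT1-CE5 averaged 141 ± 45.9, 173 ± 16.7 and 514 ± 197 at these ages. For both genes the 24-month arrays were the ones apart.

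Other probe sets of the same genes often gave smaller values. Of 18 named genes with further tested probe sets, 0 had another one that passed (0.251% of all tested probe sets did). For Tfpi the second probe set changed by 1.54 ± 0.39 (limma adjusted p = 0.086), and for Slc6a8 by 0.65 ± 0.18 (0.114), close to the called values. Probe sets of Clic4 other than the called one changed by 0.92 ± 0.22 (limma adjusted p = 0.0555), 0.46 ± 0.19 (0.497) and 0.07 ± 0.16 (0.987). The last of these was the brightest, with a mean of 22510 at 15 months against 1568 for the called one. The second probe set of Peli2 changed by 0.02 ± 0.16, and the 5 others of Nedd4 by -0.04 to 0.27. All 3 other probe sets of Dyrk2 were negative, at -0.46 to -0.04. Both other probe sets of Map3k20 were near 0 (0.07 and 0.15). The 5 others of Zbtb20 lay at -0.32 to 0.20, those of Sf3b1 at 0.17 and -0.02, and those of Rbpj at 0.12 and 0.15. The second probe set of Ubr4 changed by 0.07, that of Pmp22 by 0.08 and that of Naprt by 0.16. In these genes the rise rested on a single probe set each, and the region of the transcript it covers is not given in the files used here. In each of them but Naprt, another probe set was brighter at 15 months than the called one. The brightest of Nedd4 had a mean of 26890 against 1445 for the called one, and changed by -0.03. For Map3k20 these values were 9087, 199 and 0.15, and for Sf3b1 9087, 204 and -0.02. The second probe set of Myo1c changed by 0.26. Those of Nfe2l1, which fell, changed by 0.16 and -0.34 (limma adjusted p = 0.961 and 0.884). Further probe sets of RT1-CE5 (0.49 and 1.05) and Pgp (-0.54) had the sign of the called one. Kmt5a and Romo1 had no other tested probe set.

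**Figure D3:**
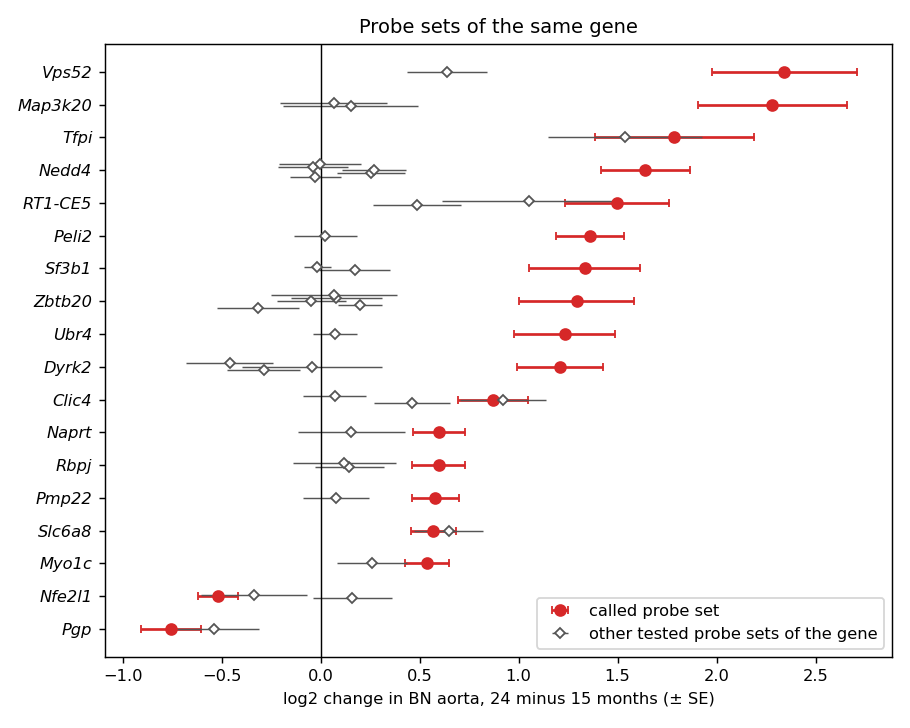
Change in BN aorta from 15 to 24 months (log2, ± SE) of the called probe set (filled circles) and of every other tested probe set of the same gene (open diamonds) for the 18 named genes that have one. The second values of Tfpi, Slc6a8 and one of Clic4 lie beside the called value, and those of Peli2, Nedd4, Dyrk2 and Map3k20 lie near or below 0.3.

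The same ages were compared in FBN aorta, on separate arrays, to see which changes were shared. There 2 probe sets rose (0.012%) and 33 fell (0.197%). Of the 31 that rose in BN, 10 fell in FBN, which is 32.3% of the BN rises and 30.3% of the FBN falls, and 0 rose. In all 15 of the 31 were lower in FBN at an unadjusted p under 0.05 (3.04% of all tested), and 2 of the 11 that fell in BN were higher there (2.21%). The 10 include the genes Peli2, Nedd4, Map3k20, Dyrk2, Clic4, Rbpj and Zbtb20. Peli2 fell in FBN by 1.39 on the log2 scale, from 1168 ± 178 to 447 ± 64.5 (n = 6 each, limma adjusted p = 1.78e-05), where the highest 24-month array (552) lay below the lowest of 15 months (924). Nedd4 fell by 1.39 as well, from 4085 ± 1010.0 to 1556 ± 349 (limma adjusted p = 0.00186). FBN aortas of 24 months thus had levels of these genes near those of BN aortas of 15 months. Of the 2 ages, these groups also had the higher control signals of their strain. Hybridization controls averaged 13.22 in BN at 15 months and 13.01 in FBN at 24 months, against 12.77 in BN at 24 months and 12.55 in FBN at 15 months. Poly-A spike-ins averaged 9.02 and 9.34, against 8.35 and 8.81. The reversal between the strains cannot be told apart from these control signals. With the poly-A covariate 15 probe sets rose in BN and 8 fell in FBN, 4 of them in both, and without FBN 24-month array 3 the counts were 31, 16 and 7.

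The difference of the 2 strains' changes was tested directly. The control signals also changed in opposite directions in the 2 strains, and the design cannot tell the 2 apart. It passed for 118 probe sets (0.706%), 106 more positive in BN (0.634%) and 12 more negative (0.0718%). The difference was 2.75 ± 0.24 for Peli2 (limma adjusted p = 8.6e-09) and 3.02 ± 0.31 for Nedd4 (2.57e-07). For Dyrk2 it was 2.44 ± 0.30 (limma adjusted p = 1.1e-05), for Map3k20 4.16 ± 0.52 (1.29e-05) and for Clic4 1.90 ± 0.24 (1.91e-05). In each of these 5 genes it also passed with the poly-A covariate, in which 26 and 2 probe sets did overall. More negative in BN were Nfe2l1 (-0.75 ± 0.14, limma adjusted p = 0.00334), Prdm2, a histone methyltransferase (-1.19 ± 0.26, 0.0197), and Kmt5a (-0.89 ± 0.22, 0.0407). The myosin light chain kinase Mylk (-0.46 ± 0.11, limma adjusted p = 0.034) and the ribosomal protein gene Rps29 (-0.48 ± 0.11, 0.0279) were too, but with quantile normalization the value of Rps29 turned to 0.11. None of these 5 negative differences passed with the poly-A covariate (limma adjusted p = 0.11 for Nfe2l1, 0.348 for Prdm2, 0.271 for Kmt5a, 0.299 for Mylk and 0.15 for Rps29), which took Prdm2 to -0.54. With the hybridization controls as covariate Kmt5a was at -0.02 (limma adjusted p = 0.972), and of the 5 Prdm2 alone passed. Without FBN 24-month array 3, Kmt5a, Mylk and Rps29 did not pass. Over 16 alternatives Kmt5a and Mylk lost the call in 12 each, Rps29 in 8, and Nfe2l1 and Prdm2 in 2 each. The BN change of Prdm2 was -0.39, and in its 2 other probe sets 0.04 and 0.07.

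RT1-CE5 and Tfpi had positive changes in both strains. RT1-CE5 went from 140.4 ± 26.9 to 237 ± 37.0 in FBN (0.76 ± 0.25, limma adjusted p = 0.408), and the difference between the strains was 0.73 ± 0.37 (adjusted p = 0.681). Tfpi changed by 1.14 ± 0.38 in FBN (limma adjusted p = 0.426), with a difference of 0.65 ± 0.55 (0.984). Neither the FBN change nor the strain difference passed for these genes.

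**Figure D4:**
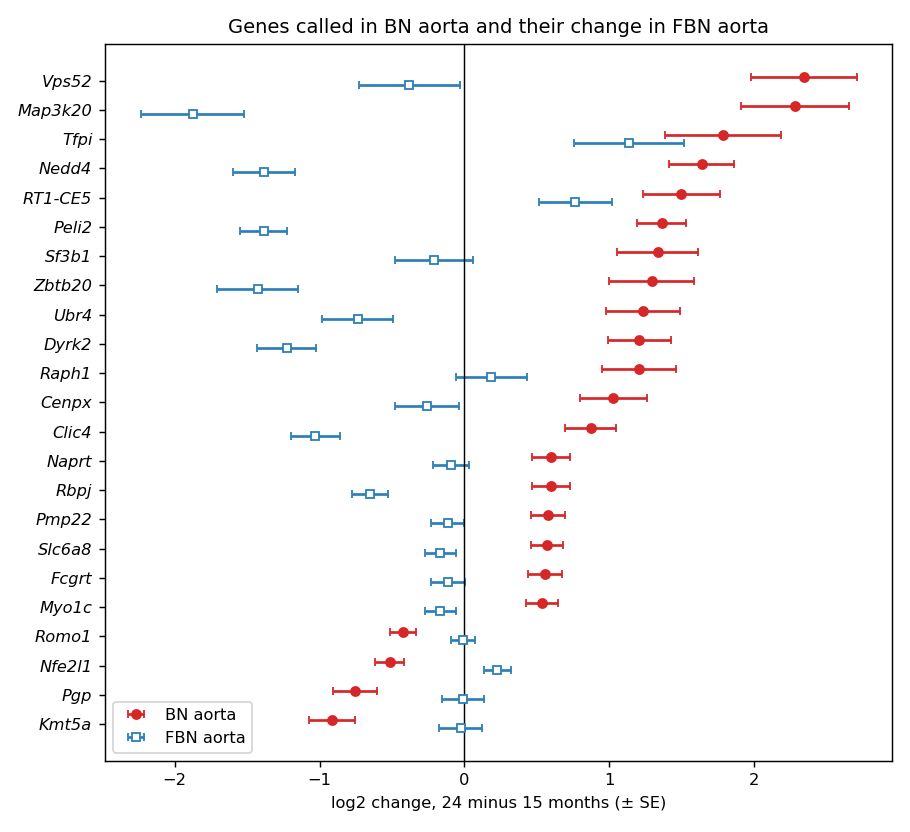
Change from 15 to 24 months (log2, ± SE) of the 23 named genes in BN aorta (filled circles) and in FBN aorta (open squares). Peli2, Nedd4, Map3k20, Dyrk2, Clic4, Rbpj and Zbtb20 lie to the right of 0 in BN and to the left in FBN, while Tfpi and RT1-CE5 lie to the right in both.

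Gene lists of the vessel wall, its fat, immunity and metabolism were laid over the comparison. Of 40 lists 39 had a tested member, and 2 members passed, Kmt5a of the histone methyltransferases and Nfe2l1 of the proteasome regulators, both lower. The lists are therefore described by their medians and by counts at an unadjusted p under 0.05, which 5.02% of all tested probe sets met higher at 24 months and 3.05% lower. A list gene stands by its brightest tested probe set.

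Genes of antigen presentation had the highest median. Over 15 tested genes it was 0.46, with 13 positive, 9 past the unadjusted threshold higher and 0 lower. RT1-Db1, a class II beta chain, had 734, 814, 790.4, 666 and 736 at 15 months and 813 to 2262 at 24 months (median 1162). Tap1, which pumps peptides into the endoplasmic reticulum for class I molecules, had 322, 331, 504, 635 and 648, and then 425 to 1103 (median 813). The ages overlapped in both genes, and the changes were 0.70 ± 0.20 and 0.67 ± 0.23 (limma adjusted p = 0.141 and 0.304). In the class II alpha chain RT1-Ba and the class I gene RT1-S3 they were 0.62 and 0.53 (limma adjusted p = 0.351 and 0.302). The other probe set of RT1-Db1 changed by 0.12 (limma adjusted p = 0.996). Class I genes may share probe signal, as said of RT1-CE5, so the 9 may not be independent. The highest 24-month signals of RT1-Db1 and RT1-Ba, 2262 and 10186, both came from array 1, and without that array the list's median was 0.27. It was positive in all 24 alternative settings, with 0.55 as the highest. In FBN it was 0.18. From 6 to 15 months in BN it was -0.26, and from 6 to 24 months 0.17.

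Interferon-stimulated genes had a median of 0.25 over 18 tested genes, with 5 past the unadjusted threshold higher and 0 lower. Isg15, a ubiquitin-like protein made in response to interferon, had 469, 219, 522, 558 and 265 at 15 months. At 24 months it ran from 564 to 1090 (median 701), so the ages did not overlap, and the change was 0.94 ± 0.22 (limma adjusted p = 0.061). Irf7, the master factor of the type I interferon response, had 812, 567, 725, 1000.5 and 893 and then 917 to 1686 (median 1347), a change of 0.71 ± 0.19 (limma adjusted p = 0.102). Gbp2, a guanylate-binding defence protein, and Psmb8, an immunoproteasome subunit, changed by 0.61 ± 0.21 and 0.49 ± 0.15 (limma adjusted p = 0.304 and 0.199). Fitted on the 17 BN arrays alone, where the spread of FBN arrays does not enter, Isg15 and Irf7 passed (limma adjusted p = 0.0446 and 0.0426). On the 11 arrays of 15 and 24 months alone (0.089 and 0.0623), over all 71 arrays and with the poly-A covariate, 0 of the 18 genes passed. The median of the list was positive in all 24 alternatives, 0.15 to 0.62, and in FBN it was 0.22. Other lists had medians between those of the interferon and antigen presentation genes. These were TGF-beta, BMP and activin genes (0.29), complement and acute-phase genes (0.28) and immediate early genes (0.26). With the hybridization controls as covariate they turned to -0.27, -0.50 and -0.37.

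Promoters of some of these genes carry GAAA, any 2 bases and GAAA again, the core of the element that interferon-activated factors bind. It was searched on both strands in the 250 bases before each gene's start in RefSeq's GRCr8 promoter table. Of all 27457 genes there 3.61% held it, of 14 matched interferon list genes 8 did, and of 13 matched antigen presentation genes 5 did. Among the 20 named genes of the comparison with a promoter in the table, Cenpx and Fcgrt held it. Stretches around it are shown for 3 of the genes described above, with the match in capitals, each on the gene's own strand. The Irf7 stretch is chr1:205800038-205800137 (minus strand), that of Gbp2 chr2:234005651-234005726 (plus strand) and that of Tap1 chr20:4668610-4668709 (minus strand). In all 3 the match is on the strand opposite to the gene, read here as TTTC, 2 bases and TTTC. The match is a description of letters, and nothing measured here shows binding.
Irf7: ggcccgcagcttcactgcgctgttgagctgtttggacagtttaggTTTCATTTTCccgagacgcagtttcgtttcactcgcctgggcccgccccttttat
Gbp2: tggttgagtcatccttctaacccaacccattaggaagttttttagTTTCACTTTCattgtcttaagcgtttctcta
Tap1: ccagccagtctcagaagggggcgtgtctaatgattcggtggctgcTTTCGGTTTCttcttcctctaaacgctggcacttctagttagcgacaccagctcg

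Markers of blood-derived cells give the setting of these immune values. Macrophage genes had a median of 0.20 over 16 tested genes, with 15 positive and 1 past the unadjusted threshold higher. The median was -0.015 with the poly-A covariate and -0.06 with the hybridization controls as covariate. Their summed signal was 24160 to 39590 at 15 months and 25520 to 47890 at 24 months, so the ages overlapped. Of 19 T, B and NK cell genes 4 were bright enough to test, with a median of 0.12, and of 10 neutrophil genes 0. The part of these cells in the antigen presentation and interferon values was not tested.

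Cholesterol synthesis genes lay on the lower side. Their median was -0.33 over 14 tested genes, with 13 negative and 3 past the unadjusted threshold lower. Fdps, which makes farnesyl diphosphate, had 6909, 7071, 7761, 7306 and 6533 at 15 months and 3780.1 to 5043 at 24 months (median 4306). Idi1, an isomerase upstream of it, had 2093, 2227, 2782, 1992 and 1749 and then 1254 to 1634 (median 1329). Every 24-month array of both genes lay below every 15-month array, with changes of -0.72 ± 0.17 and -0.62 ± 0.20 (limma adjusted p = 0.0667 and 0.247). Lss, which closes the sterol rings, changed by -0.67 ± 0.20 (0.169). On the BN arrays alone Fdps, Idi1 and Lss passed (limma adjusted p = 0.000593, 0.0326 and 0.039). On the 11 arrays alone 2 genes of the list passed and with the poly-A covariate 0. With the hybridization controls as covariate the values of Fdps and Lss shrank to -0.33 and -0.17 (limma adjusted p = 0.228 and 0.603). The median stayed negative in all 24 alternatives, -0.45 to -0.29. The FBN median was -0.13.

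Fatty acid and sugar use showed lower medians, whose sign turned with a covariate made of the hybridization controls. Fatty acid and triglyceride synthesis had a median of -0.38 over 21 tested genes, 18 of them negative. Elovl6, a fatty acid elongase, had 24561, 18173, 26633, 22122 and 27192 at 15 months and 5027 to 12700 at 24 months (median 10211). Me1, the malic enzyme that supplies reducing power for lipid synthesis, averaged 43250 ± 6152 and then 23580 ± 6623. Neither overlapped, yet the changes of -1.41 ± 0.68 and -0.91 ± 0.43 did not pass in the fit over all aorta arrays (limma adjusted p = 0.604 and 0.586), and did on the BN arrays alone (0.00268 and 0.00777). Glucose uptake and glycolysis had a median of -0.27 over 17 genes, with Pfkp, a phosphofructokinase, at -0.97 ± 0.28 (limma adjusted p = 0.149). Respiratory chain and ATP synthase genes were negative in 31 of 31, with a median of -0.20. The brown adipocyte list had a median of -0.19 over 12 genes, with a summed signal of 234900 to 320600 at 15 months and 192500 to 304400 at 24 months. With the hybridization controls as a covariate the medians turned to 0.86 for fatty acid synthesis, 0.58 for glycolysis, 0.91 for the respiratory chain and 1.06 for brown adipocyte genes, and with the poly-A covariate they were -1.06, -0.62, -0.65 and -0.97.

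Vessel wall lists lay near the median of all probe sets. Contractile smooth muscle genes had a median of 0.11 over 17, endothelial genes 0.09 over 14, fibroblast genes -0.05 over 12, and collagens and elastic fibre genes 0.00 over 25. With the hybridization control covariate the smooth muscle median was -1.20, the fibroblast median -0.97 and the collagen median -1.42. With the poly-A covariate these were 0.64, 0.16 and 0.39. The collagen list had 13 positive and 12 negative genes, with 1 past the unadjusted threshold higher and 3 lower. Col3a1, a fibrillar collagen, averaged 37780 ± 4521 at 15 months and 28970 ± 3034 at 24 months (-0.38 ± 0.18, limma adjusted p = 0.606). Klf2, Tgfb1 and Pde5a are not in these vessel wall lists. Klf2, a factor induced by laminar flow in endothelium, had a value of 0.70 ± 0.22 (limma adjusted p = 0.222), and Tgfb1, a growth factor of matrix production, 0.83 ± 0.21 (0.08). Pde5a, which breaks down the messenger of nitric oxide, had 243, 354, 128, 134 and 152 at 15 months and 401 to 664 at 24 months (median 490.1). Its arrays did not overlap, the change was 1.41 ± 0.35 (limma adjusted p = 0.0715), and the value in FBN was -1.28 (limma adjusted p = 0.135), with a strain difference that passed (2.68, adjusted p = 0.00222). With the hybridization controls as covariate the BN change of Pde5a was 0.23 (limma adjusted p = 0.635).

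In the circadian clock list the repressor Bhlhe40 averaged 1937 ± 627 and then 873 ± 272 (-1.15 ± 0.50, limma adjusted p = 0.523), and its partner Bhlhe41 816 ± 282 and 1474 ± 390.4 (0.87 ± 0.30, 0.306). Both passed on the BN arrays alone (limma adjusted p = 0.029 and 0.0402), but with the hybridization controls as covariate their values were -0.07 and 0.17 (limma adjusted p = 0.938 and 0.738). The clock list had 5 genes past the unadjusted threshold higher and 1 lower among 19, with a median of 0.14, and the hour at which tissue was taken is not given in the labels. In the coagulation list F2r, the thrombin receptor, averaged 3695 ± 228 and 4780 ± 465 (0.37 ± 0.11, limma adjusted p = 0.189), without overlap. Skeletal and cardiac muscle genes had a median of -0.44 over 9 tested genes, which turned to 0.17 without 15-month array 4. Mb, the oxygen store of muscle, ranged from 671 to 4846 over the 11 arrays. With the poly-A and the hybridization covariates the median of the list was -0.18 and -0.13.

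**Figure D5:**
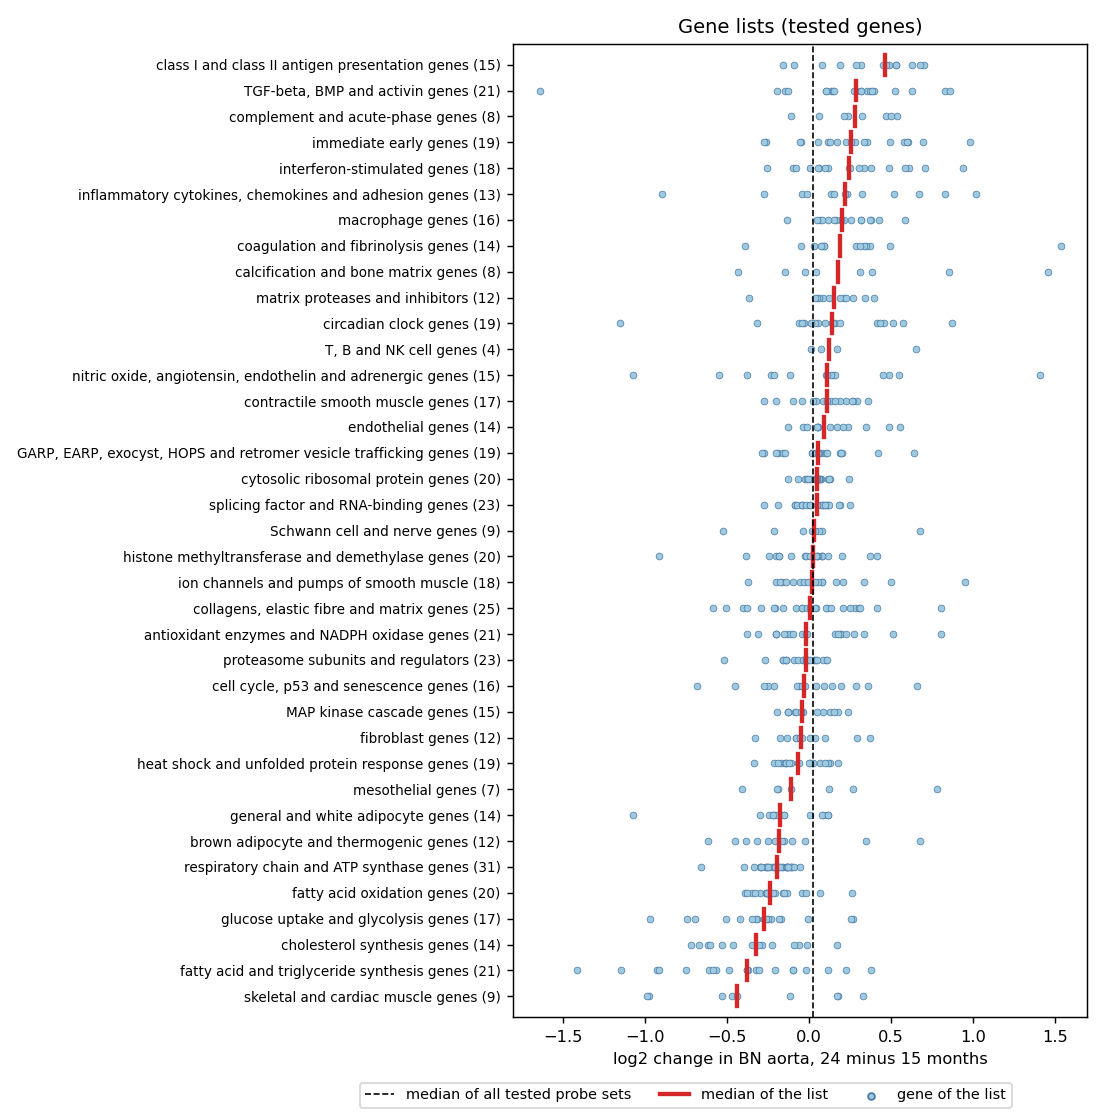
Change in BN aorta from 15 to 24 months (log2) of each tested gene (points) of every list with at least 4 tested genes, the number in brackets, with the list's median as a bar; the dashed line is the median of all tested probe sets. Antigen presentation genes lie highest with a median of 0.46 and skeletal and cardiac muscle genes lowest with -0.44 (0.17 without 15-month array 4), while vessel wall lists sit near the dashed line.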

How the data were processed

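Rat arteries were measured on 71 Affymetrix arrays, of which 35 are aorta. The deposited values are intensity, the authors' MAS5 signal on a linear scale, made with GCOS and MAS5 per the submitters' processing notes (versions not given in the sources used here). The mean of each array without its lowest and highest 2% was 1000.3 to 1000.4. Signals were turned to log2 with no offset, so changes from near background depend on that choice. After leaving out 57 control probe sets, 16717 of 31099 were kept whose mean in aorta or in mesenteric arrays reached 8.19 (signal 292.4). Detection calls and scan dates were not used here. The number of arrays limits the precision.

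The 6 aorta groups each had a mean in a linear model (limma 3.58.1, R 4.3.3), with moderated tests by eBayes with trend and robust estimates, two-sided, with Benjamini-Hochberg adjustment. The method was tested on simulated data. Named genes are those called with 1 symbol, up to 20 in each direction (the probe set of smallest p stands for a gene), up to 4 of each list and up to 5 per direction of the strain difference. Genes were named by the platform table (1 symbol for 20832 probe sets, several for 436, none for 9780). Mb is shown as a label marker. The comparison, gene lists and rules were chosen with earlier results of these data known. Alternatives were another normalization, offset, filters, eBayes settings, array weights, other sets of arrays (BN alone, the 11 alone, all 71), covariates (tissue mass, poly-A spike-ins, brown adipocyte score) and leaving out each array. Added after seeing the data were the hybridization controls as a covariate, the poly-A covariate for the strain difference, and leaving out FBN 24-month array 3.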

Additional observations from a re-analysis of the deposited data

Results flagged for a closer look

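In 7 of 156 groups of arrays examined, 1 array lay far from the others by Dixon's criterion, and chance gives about 1 in 20. At 24 months these were Vps52 in array 6 (47.01, others 206.2 to 351.9), Col6a3 in array 5 (3888, others 4704 to 5062) and Vps26a in array 5 (1575, others 1373 to 1436). At 15 months they were Peli2 in array 3 (288.4, others 515.5 to 593.6), Prdm2 in array 5 (311.1, others 567.1 to 667.5), Tgfb1 in array 4 (192.7, others 458.3 to 590.8) and Grem1 in array 1 (8.615, others 65.06 to 105.8).

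The naming rule picked the genes called, up to 4 of each gene list and up to 5 strain differences in each direction. Among them the change from 15 to 24 months differed between BN and FBN aorta for 23 by limma's test of the difference. Over all tested probe sets 118 passed it. The rule picked some genes by this same test and others by the BN change that enters it, so the count of 23 is a description. Positive differences (BN minus FBN, log2) were 4.16 for Map3k20, 3.02 for Nedd4, 2.75 for Peli2, 2.72 for Vps52, 2.72 for Zbtb20, 2.68 for Pde5a, 2.61 for the calcium pump Atp2b4, 2.44 for Dyrk2, 1.97 for Ubr4 and 1.9 for Clic4. Smaller ones were 1.29 for Cenpx, 1.29 for Tgfb1, 1.25 for Rbpj, 0.74 for Slc6a8, 0.7 for Pmp22, 0.7 for Myo1c, 0.67 for Fcgrt and 0.63 for the histone methyltransferase Ehmt2. Negative ones were -1.19 for Prdm2, -0.89 for Kmt5a, -0.75 for Nfe2l1, -0.48 for Rps29 and -0.46 for Mylk.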

How the results depend on the processing

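All 42 calls kept their sign in every alternative in which they were tested, and 7 named genes kept the call as well (Dyrk2, Kmt5a, Map3k20, Nedd4, Peli2, RT1-CE5 and Vps52). Counts of probe sets higher and lower, 31 and 11 as reported, were 8 and 5 with a stricter filter, 309 and 172 with array weights, 154 and 120 on BN arrays alone, 97 and 69 on the 11 arrays, 92 and 62 over all 71, 65 and 42 with tissue mass, 131 and 103 with the brown adipocyte score, 15 and 7 with the poly-A signal, and 2184 and 2437 with the hybridization controls as a covariate. The cause was not tested, but the median spread between arrays of a group was a log2 SD of 0.25 in BN and 0.38 in FBN aorta. Leaving out single arrays gave 14 to 38 higher and 4 to 18 lower: besides 15-month array 5 and 24-month array 4, higher counts were 18, 19 and 20 without 24-month arrays 1, 3 and 5, and lower counts 5, 5, 6, 6 and 18 without 15-month arrays 3 and 4 and 24-month arrays 1, 3 and 6. Strain differences, 106 and 12, were 26 and 2 with the poly-A and 3600 and 3918 with the hybridization covariate, and 69 to 99 and 5 to 14 without single arrays. FBN calls, 2 and 33, were 0 and 8 with the poly-A covariate, and 0 and 16 without FBN array 3. The poly-A difference stayed at -0.71 to -0.62. With the hybridization covariate these genes changed sign, with the cause not tested: Ibsp -1.16, Postn -0.068, Slc25a1 0.32, Me1 0.47, Elovl6 0.93, Pfkp 0.024, Slc2a4 0.30, Icam1 -0.10, Gpnmb -0.0011, Myh1 0.23 and Ace -0.46. With quantile normalization the strain difference of Rps29 was 0.11. No paired analysis was possible because the labels give no replicate numbers.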
